A study of Arabidopsis thaliana with 8 samples.

Results

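The transcripts described here were higher after nitrate than in potassium chloride (KCl) in roots, with little or no rise in shoots, where a fall was allowed. They were chosen by their measured change, on 8 Affymetrix ATH1 arrays, as log2(signal + 16). A probe set was taken when its mean signal over the 8 arrays was over about 33, its mean change in roots was at least 0.8 with both root nitrate arrays above both root KCl arrays, and its mean change in shoots was under 0.3. Of 22810 probe sets, 13640 passed the signal filter, 260 met the root condition and 81 also met the shoot condition. A single one of these, that of AT1G22170, was left out by name, which left 80 probe sets. The probe table used here names 1 gene for 31 of them, each a different gene, and no gene for the other 49, which are given by probe set.

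Wild-type Arabidopsis thaliana of the Col-0 accession was grown for 10 days in liquid culture under constant light. They were treated for 20 min with KCl, the control, or with potassium nitrate, both at 250 µM, so potassium was supplied in either case. Total RNA of roots and of shoots was measured in each treatment, which makes 4 groups of 2 samples, none with a mutation or transgene. Separate cultures are not stated for the samples within a group, and the p-values reflect a spread between samples that may be technical only. Whole organs were sampled, in which fewer cells of a type and less RNA per cell cannot be told apart.

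Nitrate is both a nutrient and a signal for plants. Roots take it up through transporters and reduce it to ammonium there or in leaves, and transcription factors of the NLP family, held in the nucleus when nitrate is present, switch on a first wave of genes within minutes. That wave is best known for nitrate transport, nitrate and nitrite reduction, the supply of reducing power and a set of feedback repressors.

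The organ labels were checked against fixed markers. Of 9 root markers and 7 markers of green shoots, the probe table lists 3 and 1. The root hair expansins EXPA7 and EXPA18 had signals of 121 to 284 on the root arrays and of 2.07 to 35.1 on the shoot arrays, and RCA, Rubisco activase, had 108 to 171 on the root arrays against 2492 to 4194 on the shoot arrays. PYK10, a beta-glucosidase known from roots, had overlapping signals in both organs. The median signal of an array was between 42.3 and 49.9, and the number of arrays limits the precision.

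Across the 80 members the change in roots ran from 0.80 to 3.04 on the log2(signal + 16) scale, with a median of 1.05. This scale understates the change of dim transcripts, and on the plain signal scale the median ratio of nitrate to KCl was 2.36. The change was 2 or more for 10 members, between 1 and 2 for 35 and under 1 for 35. In shoots the changes ran from -0.87 to 0.30 with a median of 0.09, while over all 13640 probe sets the median was -0.03 in roots and -0.01 in shoots. These values are those that chose the members and are given as a description.

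**Figure D1:**
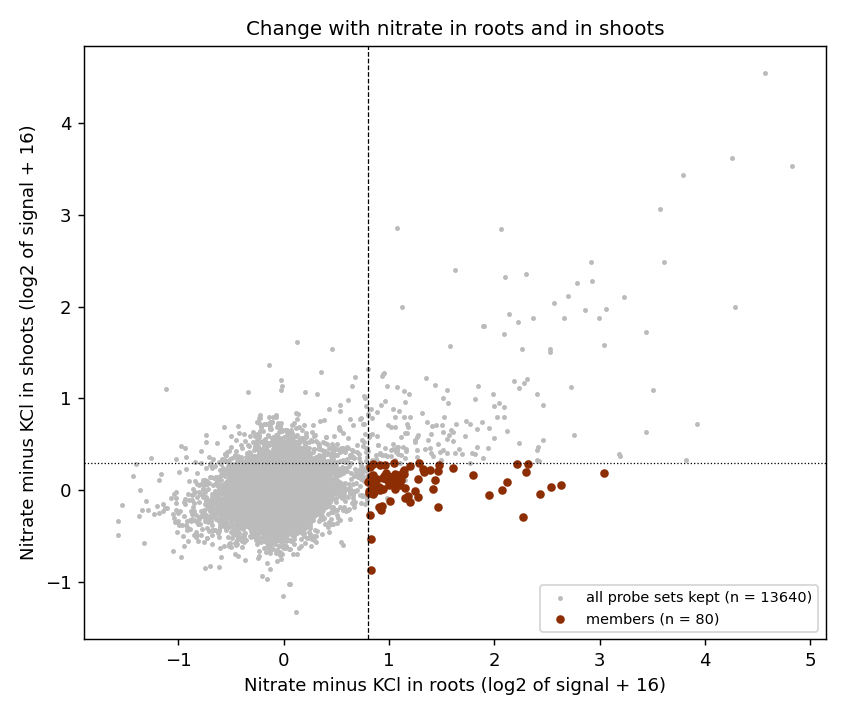
Each point is a probe set, placed by its change with nitrate in roots (horizontal axis) and in shoots (vertical axis), both as mean log2(signal + 16) of nitrate minus KCl. The 80 members lie right of the dashed line at 0.8 and below the dotted line at 0.3, and other probe sets that passed the root threshold continue above that line without a gap.

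The shoot threshold cut through a continuous range. The members nearest inside it were 253224_at, AT5G07890 and AT4G18340, at 0.30, 0.29 and 0.29 in shoots, and the probe sets nearest outside were AT1G71980, 250832_at and CSA1, at 0.30, 0.31 and 0.31. Among all probe sets that met the root condition and were not left out by name, 172 had a shoot change of 0.3 or more, with a median of 0.70. The root threshold lay between 247775_at, 254167_at and AT1G75140 inside, at 0.80, 0.81 and 0.81, and 252184_at, 251895_at and 259845_at outside, each at 0.79. The lowest mean signals among members were 33.4 for 246295_at, 35.1 for AT5G59930 and 35.2 for 261502_at. Below the filter the nearest otherwise matching probe sets were 254125_at at 32.4, 254644_at at 32.1 and AT4G33905 at 31.2.

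Passing both thresholds does not show that the organs differed. The test of the difference itself, the root change minus the shoot change, passed for 0 of the 80 members (limma, adjusted over all probe sets), while 0.0147% of all probe sets tested passed with a larger change in roots, and 68 members had an unadjusted p under 0.05. The change in roots alone passed for 31 of the 80, where 1.03% of all probe sets passed as rises. Both comparisons contain the contrast that chose the members, so nothing is read from these counts.

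Of the named members, 6 encode regulators of transcription, signalling or protein turnover, and their changes in roots ran from 0.82 to 2.63. The largest was that of AT5G58900, a MYB-like transcription factor. Its signals in roots were 39.3 and 60.1 in KCl and 346 and 431 in nitrate on the arrays numbered 1 and 2. In shoots they were 104 and 112 in KCl and 91.9 and 138 in nitrate. The shoot arrays thus lay between both root groups and overlapped with each other. The change in roots was 2.71 and 2.56 on the arrays numbered 1 and 2.

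AT4G27900 encodes a protein with a CCT motif, found in regulators of flowering and of the clock. In roots it had 74.6 and 73.0 in KCl and 204 and 172 in nitrate, and in shoots 266 and 151 in KCl and 249 and 148 in nitrate. Shoots were above both root KCl arrays in either treatment and overlapped root nitrate, and they differed by replicate number rather than by treatment. AT1G72200 encodes a RING finger protein of the ATL family, many of which are ubiquitin ligases. It had 192 and 170 in root KCl and 379 and 361 in root nitrate, and between 47.3 and 59.0 on the 4 shoot arrays, so every root array was above every shoot array.

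The other 3 regulators were close to the root threshold. ULT1, a SAND domain protein that limits the size of shoot and floral meristems, had a root change of 0.88, with 70.0 and 44.0 in KCl and 139 and 97.0 in nitrate. AT1G61660, a bHLH transcription factor, had 0.83 and signals of 51.1 and 41.5 in root KCl against 87.6 and 101 in root nitrate. Its shoot arrays, from 48.6 to 115, overlapped both root groups. ATMRK1, a Raf-like protein kinase, had a root change of 0.82, from 218 and 214 to 440 and 354, and its shoot change was 0.55 on the arrays numbered 1 and -0.035 on those numbered 2.

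As grouped here, enzymes were the largest group with a function given, with 8 members and a median root change of 1.00. AT4G18340, of the family of beta-1,3-glucanases that act on callose and cell walls, had the largest change among them, 2.32. Its root signals were 59.98 and 71.5 in KCl and 386 and 398 in nitrate. Its shoot signals were dim, 9.63 and 30.8 in KCl and 18.5 and 36.1 in nitrate, so all shoot arrays were below all root arrays.

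AT3G52960, a plastid peroxiredoxin that removes peroxides, had 252 and 245 in root KCl and 551 and 561 in root nitrate, and 498 to 627 on the shoot arrays. After nitrate the root signals lay within the range of the shoots. AT3G07270, GTP cyclohydrolase I of folate synthesis, had 209 and 194 in root KCl and 506 and 331 in root nitrate, with 239 to 288 in shoots. AT1G50110, a branched-chain amino acid aminotransferase, had 66.5 and 57.2 in root KCl and 175 and 113 in root nitrate, with 42.9 to 52.4 in shoots. For both enzymes every root nitrate array was above every other array, and the change was larger on the arrays numbered 1.

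Several of the enzymes are oxidoreductases. FMO, a flavin monooxygenase, had 319 and 238 in root KCl and 602 and 527 in root nitrate, a change of 0.99. AT1G59960, an aldo-keto reductase, had 113 and 113 in root KCl and 261 and 226 in root nitrate, a change of 1.00. AT4G30470, similar to cinnamoyl-CoA reductases, also had a change of 1.00, from 103 and 94.0 to 265 and 171, and its shoot range of 198 to 261 was above root KCl and overlapped root nitrate. AT5G08250, a cytochrome P450 of the CYP86 family, whose members hydroxylate fatty acids, had 38.0 and 55.8 in root KCl and 107 and 99.5 in root nitrate, with 21.0 to 30.6 in shoots.

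The named members also held 3 genes of transport and lipid binding. AT1G61740 encodes a membrane protein of the TauE/SafE family. Its root signals were 76.8 and 100.2 in KCl and 349 and 257 in nitrate, a change of 1.61, and its shoot signals of 426 to 718 were all above those of roots. AT4G39670, of the glycolipid transfer proteins, had 27.6 and 27.9 in root KCl against 74.7 and 64.2 in root nitrate. AT5G09820, a plastid lipid-associated protein (fibrillin), had 8.63 and 17.6 against 35.8 and 40.6, with 45.7 to 59.6 in shoots, and its root change of 0.91 on the scale with a pseudocount of 16 stands beside a ratio of 2.91 of the plain signals.

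Another 6 genes were grouped by their protein domain. AT5G01740, a protein of the NTF2-like fold, had 11.1 and 19.5 in root KCl and 171 and 157 in root nitrate, a change of 2.54. In shoots it had 358 and 231 in KCl and 392 and 222 in nitrate, above all root arrays. AT2G46620, an AAA-type ATPase, had 231 and 262 in root KCl and 689 and 601 in root nitrate, and 156 to 204 in shoots. The C1 domain proteins AT5G42840 and AT5G59930 had root changes of 1.097 and 1.06. The ankyrin repeat protein AT4G03500 and the hydrolase AT3G15650 had 0.82 and 0.83, and in shoots -0.27 and -0.53.

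No function is given here for the other 8 named genes. AT3G50900 had the largest change of all 80 members, 3.04, from 14.9 and 38.5 in root KCl to 375 and 277 in root nitrate. Its shoot signals were 126 and 34.8 in KCl and 139 and 44.0 in nitrate, so they followed the replicate number. AT3G50910 is the next protein-coding gene in the TAIR10.1 gene order, and it too was a member. It had 178 and 162 in root KCl and 406 and 383 in root nitrate, a change of 1.14, and 189 to 243 in shoots, between the root groups. No other 2 of the 31 named members were adjacent, the next closest being AT1G61660 and AT1G61740, 10 protein-coding genes apart.

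AT5G28610 had 18.4 and 20.8 in root KCl and 206 and 122 in root nitrate, with 6.31 to 20.0 in shoots. AT3G18560 had 60.1 and 70.5 against 322 and 330 in roots, and 38.1 to 65.3 in shoots, so its root KCl and shoot arrays overlapped while both root nitrate arrays stood apart. AT4G26130 had 96.7 and 93.4 against 280 and 244, and 129 to 156 in shoots. The remaining 3, AT5G20880, AT5G07890 and AT1G75140, had root changes of 1.25, 1.04 and 0.81.

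**Figure D2:**
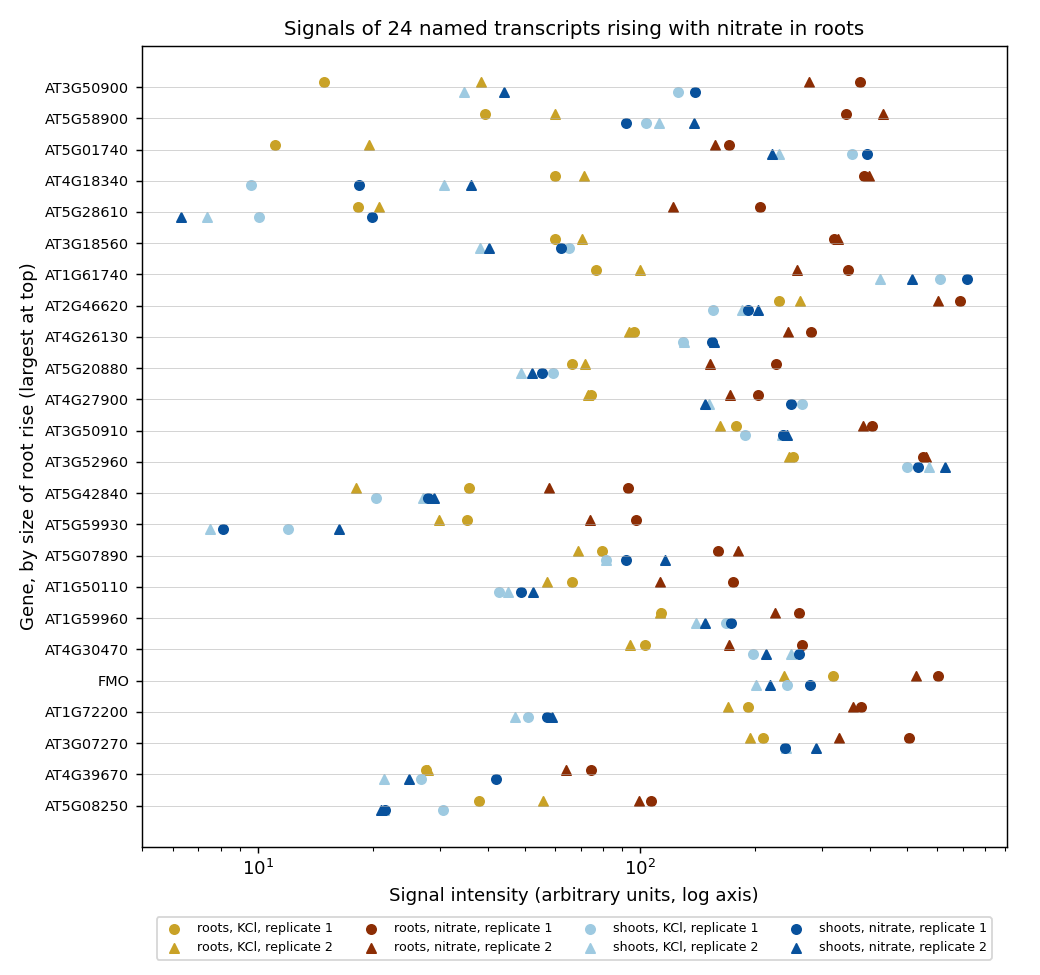
Signal intensity on each of the 8 arrays (log axis) for the 24 named members with the largest root change, with roots drawn just above and shoots just below each line, circles for arrays numbered 1 and triangles for those numbered 2. Root nitrate lies right of root KCl in every line. The shoots sit left of the roots (AT1G72200), between the root groups (AT5G58900) or right of them (AT1G61740), or they overlap a root group (AT3G18560).

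Among the 49 probe sets with no gene listed, the root change was 2 or more for 4, between 1 and 2 for 22 and under 1 for 23. The largest were 248964_at, at 2.44, and 266851_at, at 2.28. The first had 76.9 and 90.0 in root KCl and 515 and 528 in root nitrate, with 64.5 to 179 in shoots. The second had 22.4 and 15.1 against 179 and 128, and at most 7.79 on any shoot array. The mean shoot signal was under about 33 for 16 of the 80 members, AT4G18340, AT5G28610, AT5G42840, AT5G59930, AT4G39670, AT5G08250 and AT4G03500 among them.

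The level in roots against shoots, as the mean over both treatments, was tested for all probe sets. It is a different contrast from those that chose the members, but it includes the same root arrays. It was higher in roots for 42 members and lower for 16, and 22 did not pass (limma, adjusted p under 0.05). These were 52.5% and 20.0% of the members, against 26.8% and 24.1% of all probe sets. Of the 172 other probe sets past the root threshold, 60.5% were higher and 10.5% lower. The median difference was 0.48 on the log2 scale for the members, 0.70 for the 172 and 0.08 over all probe sets. A higher level in roots was thus not particular to the members. This mean contains the root change itself, which favours a higher level in roots. Its counts are therefore a description, and no lean to an organ is read from them. Each treatment was also tested alone.

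In KCl 17 members were higher in roots and 20 lower, or 21.2% and 25.0%, against 18.6% and 19.2% of all probe sets (limma, adjusted p under 0.05). The median difference was 0.02, against 0.08 over all probe sets. After nitrate 54 were higher in roots and 6 lower, with a median of 0.96, while over all probe sets 18.6% were higher and 19.6% lower. The root KCl and root nitrate arrays also served to choose the members, which favours low values in the former and high ones in the latter. The counts within a treatment are therefore a description, and no lean to an organ is read from them.

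**Figure D3:**
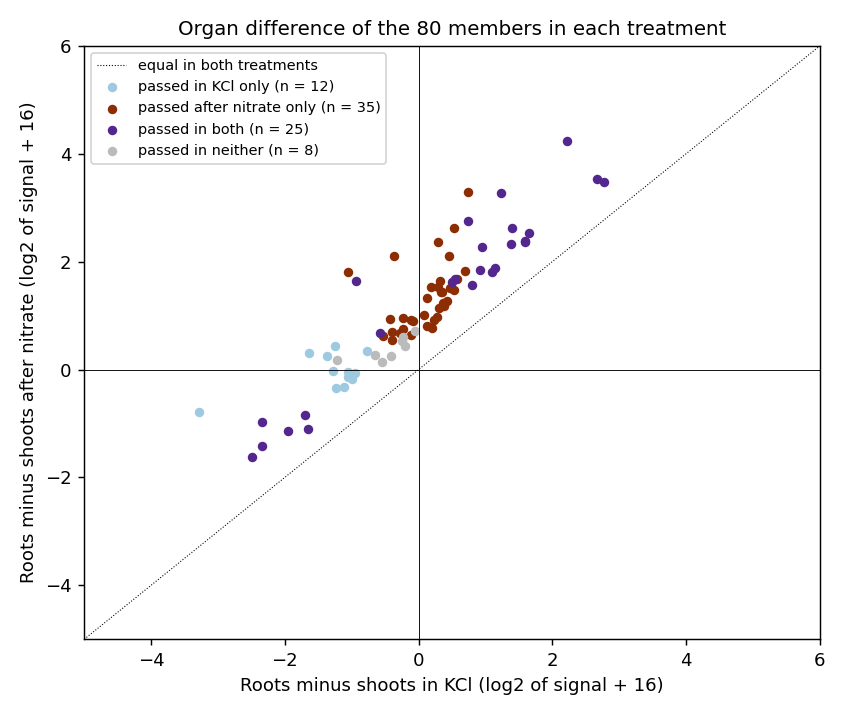
Each point is a member, placed by its log2 difference of roots minus shoots in KCl (horizontal axis) and after nitrate (vertical axis), coloured by the treatment in which limma's adjusted p was under 0.05. All points lie above the dotted line of equality because of the choice of members, and the difference passed in both treatments for 25, after nitrate only for 35, in KCl only for 12 and in neither for 8.

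The same holds for the order of the organs within a treatment, which is given as values only. AT5G58900 was lower in roots than in shoots in KCl, with a difference of -0.93, and higher after nitrate, with 1.64. For the probe set 252991_at the differences were -0.58 and 0.67. These were the only 2 members past the threshold in opposite directions, which 0.0293% of all probe sets were, and the choice of members favours this pattern.

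Among the named members, those with the largest mean differences over treatments, higher in roots, were AT4G18340, AT1G72200, AT5G28610, AT5G59930 and AT3G18560. AT1G72200 had 1.99 ± 0.11 in log2 units (SE, with an adjusted p of 1.45e-06 by limma) and AT3G18560 had 1.33 ± 0.17 (SE, with an adjusted p of 0.000225 by limma). AT1G72200 had a difference of 1.60 ± 0.15 in KCl alone. That of AT3G18560 in KCl was 0.29 ± 0.24 and did not pass (limma, adjusted p = 0.39). Both means include the root nitrate arrays that served to choose these genes, so their p-values are a description. AT4G18340, AT5G28610 and AT5G59930, at 2.25, 1.58 and 1.39, were so dim in shoots that they passed the signal filter through roots, and their differences are values with no test. Some probe sets with no gene listed had larger differences, up to 3.23 for 247591_at, which had a mean shoot signal of 4.30.

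Among the named members lower in roots, AT5G01740 had -2.04 ± 0.21 as the mean over treatments (SE; limma, adjusted p = 5.63e-05). Its difference was -3.29 ± 0.30 in KCl and -0.79 ± 0.30 after nitrate. AT1G61740 had -1.66 ± 0.18 as the mean (limma, adjusted p = 7.68e-05), and -2.34 in KCl and -0.98 after nitrate. AT5G09820, AT4G27900 and AT4G30470 had -0.79, -0.65 and -0.60. All of these differences include root arrays that served to choose the genes, so their p-values are a description. AT5G09820 had a mean root signal of 25.7, so it passed the signal filter through shoots and its difference is a value with no test. AT4G27900 missed the threshold in 6 of the 8 fits with 1 array left out (adjusted p up to 0.0942) and AT4G30470 in 2 of them.

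Members fell into groups by where the shoot arrays lay. For 25 members (31.2%) all 4 shoot arrays were below all 4 root arrays, which held for 27.1% of all probe sets. For 9 members (11.2%) all 4 were above all 4 root arrays, against 23.8% of all probe sets and 4.07% of the 172 other probe sets past the root threshold. For 13 members the shoot arrays lay between root KCl and root nitrate, against 0.235% of all probe sets and 8.14% of those 172. The rule sets the root groups apart, and it splits the members from the 172 by their shoot change. The shares of all probe sets and of the 172 are therefore a description. The 13 were AT5G58900, AT3G07270, AT1G59960, AT3G50910, AT4G26130, AT5G07890 and 7 probe sets with no gene listed. In 8 members the shoots were above root KCl and overlapped root nitrate, against 2.13% of all probe sets and 11.6% of the 172, AT3G52960, AT4G27900 and AT4G30470 among them. In 22 members (27.5%) the shoots were below root nitrate and overlapped root KCl. This held for 4.61% of all probe sets and 48.8% of the 172, and these shares too are a description. The other 3 members had another kind of overlap.

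Dim transcripts that passed the signal filter through 1 organ alone had to differ between organs. The mean signal was under about 33 in shoots for 16 members and in roots for 3. Among the 61 members brighter than that in both organs, a restriction set after the values were seen, 26 were higher in roots and 14 lower. Of all probe sets so restricted 24.9% and 18.8% were. This is still the mean over treatments, which contains the root change that chose the members, so these counts too are a description.

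The root change was compared between the arrays numbered 1 and 2. It was at least 0.8 on both for 52 of the 80 members, and for 59 the shoot change was under 0.3 on both. Both held for 39. The median root change was 1.15 on the arrays numbered 1 and 1.06 on those numbered 2, and it was larger on the former for 59 members (73.8%), against 52.2% of all probe sets and 69.2% of the 172 probe sets with a shoot change of 0.3 or more. Both the members and the 172 were chosen by the mean of these same root changes, so these shares are a description.

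**Figure D4:**
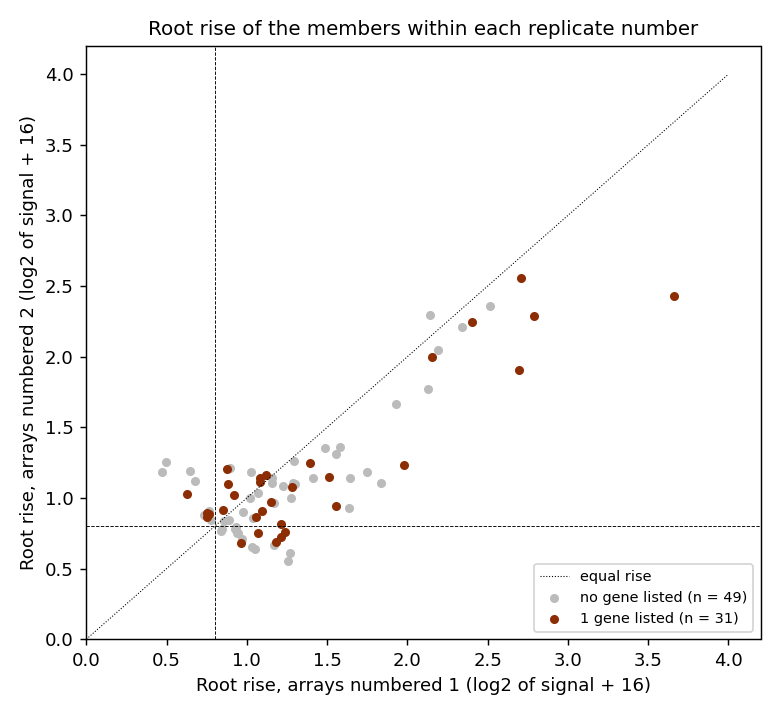
Each point is a member, placed by its root change (log2 of signal + 16, nitrate minus KCl) on the arrays numbered 1 (horizontal axis) and 2 (vertical axis), with dashed lines at 0.8 and a dotted line of equal change. Points below the dotted line, 59 of 80, changed more on the arrays numbered 1, and AT3G50900 lies farthest right at 3.66 and 2.43.

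Shoot signals also differed by replicate number. The log2 difference between the shoot arrays numbered 2 and 1 was over 1 in size for 4 members (5.00%), AT3G50900, 248964_at, 251745_at and 257644_at, each lower on the arrays numbered 2. Over all probe sets it was over 1 for 3.04%. The part of this difference in the shoot changes of the members was not tested.

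In shoots 60 members had a change above 0 and 20 a change below 0. The direction was up on both pairs of arrays for 36 members (45.0%) and down on both for 9 (11.2%), against 23.5% and 27.9% of all probe sets. The upper limit on the shoot change was a condition of the choice, so these shares are a description. Over all probe sets 6413 of 13640 were above 0. The lowest shoot change was that of 246295_at, from 90.0 and 30.6 in KCl to 29.7 and 16.5 in nitrate, and the next that of AT3G15650, from 75.1 and 48.1 to 31.4 and 43.3.

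Other genes of the nitrate response were taken from 5 lists of nitrate uptake and reduction, nitrate regulators, cytokinin, reductant supply, and ammonium assimilation with carbon skeletons. The probe table names 15 of their 97 genes, 13 were tested, and 0 were members. Whether list genes without an entry were among the 49 members with no gene listed could not be judged. In roots 5 of the 13 rose and 0 fell (limma, adjusted p under 0.05; 6 and 0 at an unadjusted p under 0.05), where 1.03% and 0.103% of all probe sets did. Their median change was 0.41 in roots and 0.19 in shoots. The lists on uptake and reduction, on regulators and on reductant supply gave 1 of 3, 2 of 5 and 2 of 3, and the others 0 of 1 each. These lists were chosen with earlier results of these data known. Their counts in roots and in shoots are therefore a description.

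Of the 5 that rose in roots, CNX6, of molybdenum cofactor synthesis, had 1.47 in roots and 0.51 in shoots. HHO2 and HHO3, GARP transcription factors, had 2.36 and 2.22 in roots and 1.87 and 1.83 in shoots. PGD1 and PGD3, of the oxidative pentose phosphate pathway, had 2.53 and 2.91 in roots and 1.54 and 2.49 in shoots. In shoots PGD3 alone of the 13 passed, where 0.0953% of all probe sets did, and 5 had an unadjusted p under 0.05. Without the first root nitrate array PGD3 alone passed in roots.

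Those that did not pass in roots included HHO5 with 0.41 ± 0.19 (SE) and HHO6 with -0.32 ± 0.18 among the regulators, SIR with 0.55 ± 0.16 and SIRB with -0.05 ± 0.17 in reduction. ARR16, a cytokinin response regulator, had -0.51 ± 0.24, PGD2 had 0.06 ± 0.19 and cICDH, cytosolic isocitrate dehydrogenase, had 0.03 ± 0.17.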

How the data were processed

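For each array the authors deposited a linear signal intensity for every probe set. MAS5 and GCOS made these intensities, per the submitters' processing notes; versions, scaling target and filters were not given in the sources used here. The mean left after trimming 2% of probe sets at each end was 100.01 on every array, so values were used as scaled.

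The 64 control probe sets were left out. The 13640 probe sets kept were fitted as log2(signal + 16) in 4 groups on all 8 arrays, with limma 3.58.1 in R 4.3.3 (lmFit, eBayes with trend), two-sided, with Benjamini-Hochberg adjustment over all of them and a threshold of 0.05. The fit was tested on simulated data. Figures used matplotlib 3.10.9.

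Names came from the platform's probe table, updated to TAIR10.1 records. It names a single gene for 13513 probe sets and several for 503, and the 8730 without an entry stay unnamed. Functions of loci are background knowledge. Members and lists were chosen with earlier results of these data known. Named were the 24 members of largest root change with 1 gene, the other members with 1 gene, the 3 nearest each threshold, the 5 largest organ differences each way, up to 4 called genes or otherwise 2 per list, and 2 unnamed probe sets. The other unnamed probe sets, further list genes, and the array values of members outside the first 24, were chosen after their values were seen. No sequences are shown.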

Additional observations from a re-analysis of the deposited data

Results flagged for a closer look

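In 9 members the signal was lower after nitrate on both shoot pairs of arrays and higher on both root pairs, where the second was fixed by the choice of members. This was 11.2% of the members, and 27.9% of all probe sets were lower on both shoot pairs. Their shoot changes on the log2(signal + 16) scale were -0.87 for 246295_at, -0.53 for AT3G15650, -0.29 for 266851_at, -0.27 for AT4G03500, -0.21 for 260693_at, -0.17 for AT5G08250, -0.0627 for AT4G27900, -0.0356 for 267298_at and -0.0195 for 266546_at. This direction was not tested as such. A shoot change under 0.3 was a condition of the choice. Groups of 2 arrays are too small to look for single deviating samples.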

How the results depend on the processing

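The 80 members depended on the thresholds and on the pseudocount. There were 45 at a root threshold of 1.0, and 134 and 20 at shoot thresholds of 0.5 and 0. There were 40 with both thresholds met within each replicate number (a replicate block, pair by pair), 39 of them among the 80. Quantile normalization gave 76, of which 73 were shared, and pseudocounts of 1 and 64 gave 114 and 66, of which 71 and 42 were shared. With 1 array left out there were 77 to 101, and 20 members stayed in all 8 such settings. The count of members higher in roots, 42 as the mean over treatments, was 17 on the KCl arrays only and 26 for members with both organ means over about 33, a choice made after the data were seen. The count lower in roots, 16, was 6 on the nitrate arrays only. With 1 array left out these counts were 32 to 42 and 13 to 17. The test of the organ difference in response, which called 0 members, called 7 at a pseudocount of 64. With a replicate block it called 2 (1 block across organs) or 30 (a block inside each organ). What the number marks is not labelled, and the differences of number 2 minus number 1 correlated between groups at 0.21 to 0.67 over probe sets, with 2 arrays a group. In the fits without 1 array it called 0. Of the 13 list genes, 5 rose in roots, and 1 to 5 did with 1 array left out: 2 without either root KCl array, and 1 and 3 without the first and second root nitrate array. In shoots 1 rose, and 1 to 3 with 1 array left out. There were 3 with quantile normalization, 4 with either replicate block and 0 in a fit to the shoot arrays alone. The block within each organ also ended the call of AT4G30470 (-0.41, adjusted p = 0.054) and gave 6 list genes rising in roots, with SIR added (0.55, adjusted p = 0.0265); both blocks added HHO2, HHO3 and PGD1 in shoots, and no other named call changed. The cause of these shifts was not tested. The 10 named organ differences kept their sign in the alternatives run for them, as did the root changes of the 24 named members with the largest ones. The choice of members fixed the sign of the root changes for other pseudocounts and with 1 array left out, so nothing is read from it. Their size did vary. The root change of AT3G07270 was 0.97 in the main fit and 1.26 without the second root nitrate array. Without the first it was 0.68, under the root threshold that chose the members. Signals under about 33 in shoots, found for 16 members, leave little room to see a fall there.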
